A study of Mus musculus with 12 samples.

Results

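Genes that mark the endothelial cells of brain vessels were followed through bulk RNA-seq of adult mouse cortex. The 10 genes, Flt1, Kdr, Tek, Cldn5, Cdh5, Pecam1, Abcb1a, Slco1a4, Slc2a1 and Ly6c1, were taken by symbol from 41388 genes, and all 10 passed the filter on low counts that left 17441 genes for testing. The study sequenced poly(A) RNA from cortical brain in 12 libraries from adult C57Bl/6 mice, 3 in each of 4 groups, and the titles give every library a separate animal number. In the knock-in group (KI, Grin1-exon5+/+) exon 5 of Grin1 is constitutive, and in the knockout group (KO, Grin1-exon5-/-) it is absent. Grin1 encodes the obligatory subunit of NMDA receptors, and its exon 5 is normally included in part of the transcripts. Each line had its own wild-type group, KI_WT for the knock-in line and KO_WT for the knockout line. The labels name no treatment, no sex and no cell type to which a genotype is limited.

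Endothelial cells of brain capillaries form the blood-brain barrier. Tight junctions seal the clefts between the cells, transporters in their membranes select what crosses, and receptors for vascular endothelial growth factor (VEGF) and angiopoietins govern their growth and quiescence. Flt1 and Kdr encode VEGF receptors 1 and 2, of which the first binds the ligand tightly and signals weakly and the second carries most of the growth signal. Tek encodes Tie2, the angiopoietin receptor. Cldn5 (claudin-5) is the main tight-junction claudin of brain vessels, Cdh5 (VE-cadherin) holds endothelial adherens junctions together, and Pecam1 (CD31) is an adhesion molecule of endothelial contacts that platelets and leukocytes also carry. Abcb1a is the P-glycoprotein pump that expels drugs, Slco1a4 an organic anion transporter, Slc2a1 the GLUT1 glucose transporter, and Ly6c1 a surface antigen abundant on brain endothelium.

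The promoters of the 3 growth-factor receptor genes are shown because the receptors gave unlike values: Flt1 and Tek had lower means in KO than in its wild types, while Kdr scattered within groups. Each line gives the 250 bases before the RefSeq transcript start on GRCm38.p6, 5′ to 3′ on the gene's strand. They lie at chr5:147726012-147726261 (minus strand) for Flt1, chr4:94739039-94739288 (plus strand) for Tek and chr5:75978456-75978705 (minus strand) for Kdr. Capitals mark AGGAAG, a core motif of ETS factors, which are prominent regulators in endothelium, and TATAAA, the TATA box; CTTTGA, a TCF/LEF core motif of Wnt signalling, was searched as well.
Flt1: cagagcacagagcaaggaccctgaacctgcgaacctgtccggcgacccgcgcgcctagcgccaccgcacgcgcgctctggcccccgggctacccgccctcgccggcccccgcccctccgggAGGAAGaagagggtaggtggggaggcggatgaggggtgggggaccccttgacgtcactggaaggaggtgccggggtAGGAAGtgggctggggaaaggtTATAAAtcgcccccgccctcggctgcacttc
Tek: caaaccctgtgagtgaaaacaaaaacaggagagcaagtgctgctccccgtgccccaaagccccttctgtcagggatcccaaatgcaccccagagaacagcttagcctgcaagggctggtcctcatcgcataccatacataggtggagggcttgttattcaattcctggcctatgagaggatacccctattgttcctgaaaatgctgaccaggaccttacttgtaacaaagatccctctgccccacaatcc
Kdr: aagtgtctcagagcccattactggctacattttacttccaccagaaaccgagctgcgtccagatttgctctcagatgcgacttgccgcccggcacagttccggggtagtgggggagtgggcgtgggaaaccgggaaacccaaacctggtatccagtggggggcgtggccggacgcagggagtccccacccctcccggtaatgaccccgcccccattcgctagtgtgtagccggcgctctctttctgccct
The Flt1 promoter held AGGAAG 2 times and a TATA box 31 bases before the start, and neither Tek nor Kdr held any of the 3 motifs on either strand in this window. Over 32851 RefSeq mouse promoters of the same 250 bases, 29.5% held the ETS motif, 13.8% the TCF/LEF motif and 12.4% the TATA box, each on either strand. RefSeq gave 9 promoters for 8 of the 10 genes, of which 4 held the ETS motif, 1 the TCF/LEF motif and 2 the TATA box. The TCF/LEF match and 1 of the 4 promoters with the ETS motif belong to Abcb1a, whose RefSeq start lies 92986 bases before the GENCODE gene start, and which start is used in cortex was not tested. The motifs do not overlap each other, and a match is a description of letters, not of a bound site.

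The genes lie on 7 chromosomes of GRCm38, and none neighbours another closely enough to share exons. Flt1 (chromosome 5, 147561604 to 147726011, minus strand), Kdr (chromosome 5, 75932827 to 75978458, minus strand) and Abcb1a (chromosome 5, 8660077 to 8748575, plus strand) are on one chromosome. Tek (94739289 to 94874976) and Slc2a1 (119108711 to 119137983) are both on the plus strand of chromosome 4. Pecam1 is on chromosome 11 (106654217 to 106750628, minus strand), Cdh5 on chromosome 8 (104101625 to 104144511, plus strand), Cldn5 on chromosome 16 (18776847 to 18778262, plus strand), Slco1a4 on chromosome 6 (141805440 to 141856199, minus strand) and Ly6c1 on chromosome 15 (75044018 to 75048830, minus strand). Exons of Abcb1a overlap those of the opposite-strand gene Gm42686 over 553 bases, and those of Slc2a1 overlap its antisense gene Gm12868 over 105 bases. Whether the counting used strand is not given in the sources used here, so reads in those stretches cannot be told apart.

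Close relatives that could have shared reads were low, apart from Ly6a and Slc2a3. Abcb1b, the second P-glycoprotein gene, was at 2.99 to 5.27 CPM (counts scaled to library size with edgeR's TMM factors). Ly6c2, nearly identical to Ly6c1 and typical of monocytes, had at most 6 counts in any library, and Slco1a1 and Slco1a6 had at most 2. Ly6a, a further endothelial Ly6 antigen, was at 26.3 to 45.6 CPM, and Slc2a3, the GLUT3 glucose transporter of neurons, was at 129.9 to 186.9 CPM, above Slc2a1 itself. A split of reads between either gene and its relative in the set was not tested.

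Libraries held 31790970 to 36514024 gene-assigned counts, and the 10 genes had from 430 (Kdr in KO 1) to 3589 counts (Slc2a1 in KO 1) each. The part of counting error in the spread of each gene was not tested. The defining genes of endothelium were present in every library, as were markers of neurons, astrocytes, oligodendrocytes, microglia and mural cells, which a piece of cortex holds. Olfactory bulb markers were raised in KI 2, KI_WT 3, KO 1 and KO_WT 3, where 6 such genes summed to 65.3 to 325 CPM, against 8.26 to 29.5 CPM in the other 8 libraries. In bulk RNA, fewer endothelial cells and less RNA of a gene per endothelial cell cannot be told apart.

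Compared per kilobase of transcript, GLUT1, claudin-5 and Ly6c1 transcripts were the most abundant of the set, and those of the growth-factor receptors, Pecam1 and Cdh5 the least. The deposited RPKM (reads scaled to transcript length and library size) averaged 29.7 ± 4.58 for Slc2a1, 25.4 ± 4.17 for Cldn5 and 25.1 ± 4.43 for Ly6c1 (SD, n = 12). Slco1a4 followed at 20.002 ± 3.03 and Abcb1a at 11.3 ± 1.42 RPKM. The lower levels were those of Flt1 (6.34 ± 0.746), Tek (4.77 ± 0.715), Pecam1 (4.38 ± 0.362), Cdh5 (3.99 ± 0.358) and Kdr (2.29 ± 0.513 RPKM).

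Parts of this order held in each library and parts did not. By the deposited RPKM, Slco1a4 lay above Abcb1a, Abcb1a above Flt1, Flt1 above Tek, and Cdh5 above Kdr in 12 of 12 libraries. The lengths behind the RPKM were within 1% of the GENCODE exon lengths for only 5 of the 10 genes. They were 3851 against 6414 bases for Slco1a4 and 2853 against 3506 for Slc2a1. An order by the GENCODE lengths was not tested, so the places of Slco1a4 and Slc2a1 rest on the deposited lengths. Cldn5 and Ly6c1 could not be ordered, since Cldn5 was the higher in 6 of 12 libraries, and their group means exchanged places in KO and KO_WT. Tek was above Pecam1 in 8 of 12 libraries, with the order of means reversed in KO, and Pecam1 above Cdh5 in 9. Leaving out KI 2, KI_WT 2 or KO 2 alone each moved 2 genes of the order, which kept 8 of 10 ranks.

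In the knockout line all 10 endothelial genes had a lower mean in KO than in KO_WT, by small amounts, and none passed the test. Of all 17441 genes tested, 48% had a log2 fold change below 0. The median log2 fold change (KO over KO_WT) of the 10 genes was -0.18, against 0.01 over all genes. Flt1 and Abcb1a differed most, then Tek and Pecam1, and Kdr and Slc2a1 differed least. By the quasi-likelihood test of edgeR, adjusted by Benjamini-Hochberg, 0 of the 10 genes were called, with 0.00573% of all genes called (a single gene, Tpp1), and the smallest adjusted p among the 10 was 0.678. At an unadjusted p under 0.05, 4 of the 10 were lower, against 3.79% of all genes. DESeq2 likewise called 0 of the 10 and had 4 lower at that level, against 2.73% of all genes. With limma on log2(RPKM + 0.1) 0 were called and 2 were lower at that level, against 2.205% of all genes, with a median of -0.13. The 3 libraries of KO lay below the 3 of KO_WT for 3 of the 10, against 6.4% of all genes. Here and below, the 10 genes share the same libraries and some vary together, so such counts are not of independent genes. The 10 were also chosen with earlier results of these data known.

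**Figure D1:**
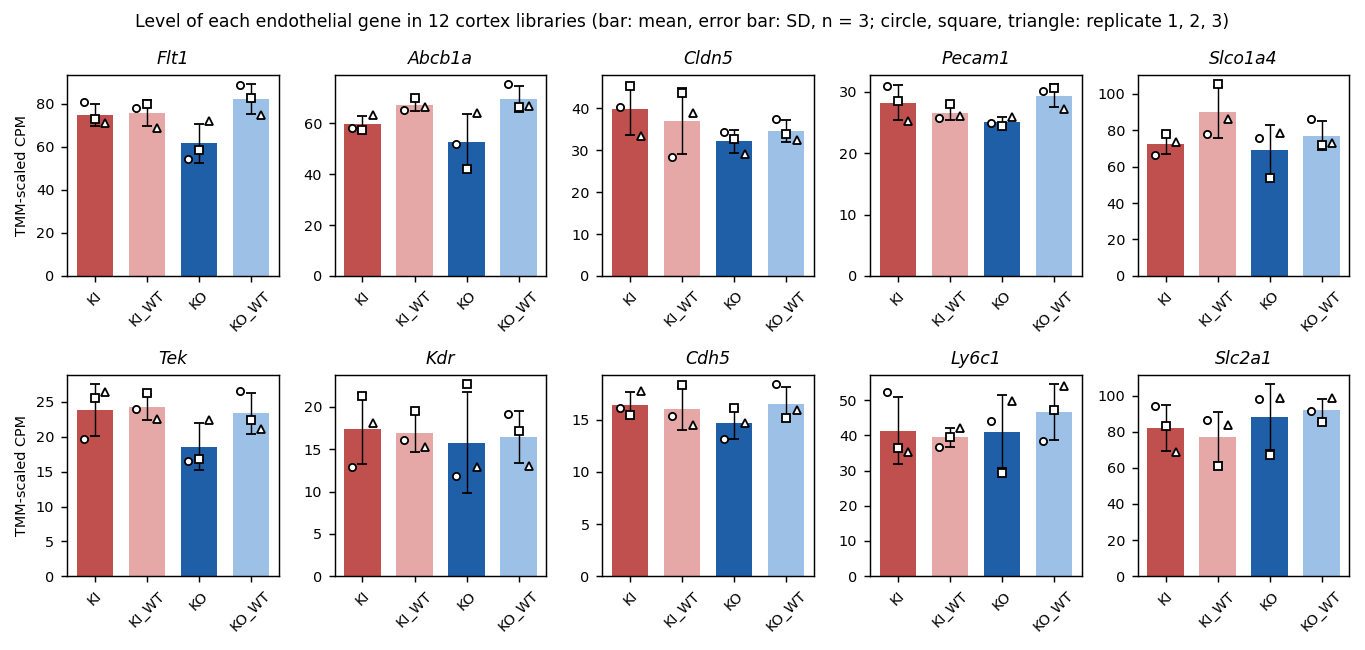
Level of each of the 10 endothelial genes in TMM-scaled CPM (vertical axes, from 0) in the 4 groups; bars are means, error bars SD with n = 3, and open circles, squares and triangles are replicates 1, 2 and 3. For Flt1, Abcb1a and Pecam1 the 3 KO points lie below the 3 KO_WT points, while for Kdr the KO points span 11.8 to 22.6 CPM.

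Among the receptors, Flt1 was at 54.5, 58.7 and 72.0 CPM in KO 1 to KO 3 and at 88.8, 82.8 and 74.9 CPM in KO_WT 1 to KO_WT 3. The groups did not overlap, and KO 3 and KO_WT 3 were the closest pair. The group means were 61.7 ± 9.12 and 82.2 ± 6.98 CPM (SD, n = 3 each). The log2 fold change of Flt1 was -0.41 (SE 0.108, 95% interval -0.65 to -0.18, edgeR adjusted p = 0.678). KO 1 and KO 2 were also the lowest 2 of all 12 libraries for this gene, the KI and KI_WT libraries having 68.9 to 80.8 CPM. Tek had 16.6, 16.8 and 22.4 CPM in KO and 26.6, 22.4 and 21.1 CPM in KO_WT. KO 3 lay within the wild-type range, so the groups overlapped, and its log2 fold change came to -0.33 (SE 0.146, 95% interval -0.65 to -0.01, edgeR adjusted p = 0.678).

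Kdr, the partner of Flt1 in VEGF signalling, gave no such separation. It had 11.8, 22.6 and 12.8 CPM in KO and 19.1, 17.2 and 13.0 CPM in KO_WT. KO thus held both the lowest and the highest Kdr value of all 12 libraries. The log2 fold change was -0.06 with a 95% interval of -0.60 to 0.48 (edgeR adjusted p = 0.962), which spans the whole range seen for the other 9 genes.

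Among the junction and adhesion genes, Pecam1 had 24.9, 24.4 and 26.0 CPM in KO and 30.2, 30.7 and 27.2 CPM in KO_WT. The groups did not overlap and KO varied little (25.1 ± 0.806 against 29.3 ± 1.90 CPM; SD, n = 3 each). The log2 fold change of Pecam1 was -0.23 (SE 0.0863, 95% interval -0.41 to -0.04, edgeR adjusted p = 0.678). Cdh5 ranged over 13.1 to 16.2 CPM in KO and 15.2 to 18.4 CPM in KO_WT, and Cldn5 at 29.2 to 34.5 against 32.3 to 37.5 CPM. Both overlapped, with log2 fold changes of -0.17 (95% interval -0.43 to 0.08) for Cdh5 and -0.11 (95% interval -0.44 to 0.22) for Cldn5.

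Among the transporters, the efflux pump had a larger difference than the carriers, and the difference between them was not tested. Abcb1a had 51.8, 42.0 and 64.0 CPM in KO and 75.5, 66.5 and 66.9 CPM in KO_WT. The groups did not overlap, with KO 3 just below the lowest wild-type library. Its means were 52.6 ± 11.01 and 69.6 ± 5.08 CPM (SD, n = 3 each), a log2 fold change of -0.40 (SE 0.122, 95% interval -0.67 to -0.14, edgeR adjusted p = 0.678). Slco1a4 ranged over 53.6 to 78.4 CPM in KO and 71.7 to 86.3 CPM in KO_WT (log2 fold change -0.15, 95% interval -0.47 to 0.17). Slc2a1 ranged over 67.0 to 98.6 CPM in KO and 85.6 to 98.4 CPM in KO_WT, with 2 of 3 KO libraries at the top of the range and KO 2 at the bottom (log2 fold change -0.06, 95% interval -0.43 to 0.31). Ly6c1 likewise had its lowest library in KO 2, with 44.1, 29.4 and 49.6 CPM in KO against 38.5, 47.3 and 54.1 CPM in KO_WT (log2 fold change -0.18, 95% interval -0.61 to 0.25).

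**Figure D2:**
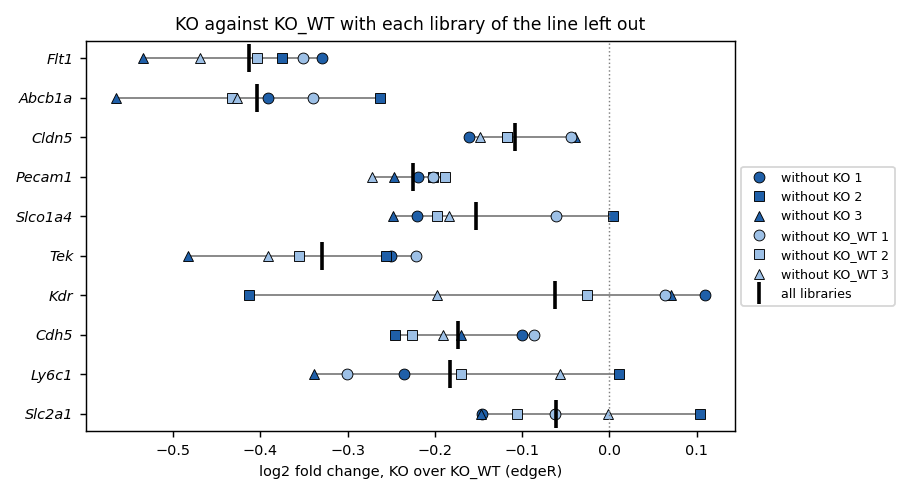
Log2 fold change of KO over KO_WT from edgeR (horizontal axis) for each of the 10 genes with all libraries (black bar) and with each library of the knockout line left out (symbols). Flt1 stays between -0.53 and -0.33, whereas Kdr runs from -0.41 without KO 2 to 0.11 without KO 1.

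Single libraries set part of these values. Without KO 2 the log2 fold change of Abcb1a was -0.26, and the values of Slco1a4 (0.00), Ly6c1 (0.01) and Slc2a1 (0.10) were no longer below 0. Kdr was at -0.41 without KO 2, 0.11 without KO 1, 0.07 without KO 3 and 0.06 without KO_WT 1. Flt1 ranged from -0.53 without KO 3 to -0.33 without KO 1, Pecam1 from -0.27 to -0.19 and Tek from -0.48 to -0.22. The number of genes lower at an unadjusted p under 0.05 was 2 without KO 1, KO 2, KO_WT 1 or KO_WT 2, against 2.18% to 2.89% of all genes. Without KO 3 it was 4, against 8.29% of all genes, and the smallest adjusted p of any of the 10 over the settings tried was 0.125, for the fit without KO 3.

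Other measures moved with the knockout contrast. KO 1 and KO 2 had 0.110 and 0.120 summed CPM of 4 Y-linked genes, whereas KO 3 and the KO_WT libraries had 191 to 219.5. By this measure KO 1 and KO 2 came from female mice, and KO 3 and the KO_WT libraries from male mice. The labels name no sex, so this reading rests on the Y-linked genes. Sex was thus not balanced between KO and KO_WT, and the KO libraries low in Flt1 and Tek were also those low in Y-linked RNA. In the knock-in line the libraries equally low in Y-linked RNA (KI 2, KI 3 and KI_WT 1) had 70.9 to 78.0 CPM of Flt1. Those with Y-linked RNA (KI 1, KI_WT 2 and KI_WT 3) had 68.9 to 80.8 CPM. The part of sex in the Flt1 values was not tested. With a term for Y-linked expression the log2 fold change of Flt1 was -0.33, 9 of the 10 genes were below 0, and 2 were lower at an unadjusted p under 0.05, against 1.40% of all genes. With terms for choroid plexus, thalamus and olfactory bulb markers it was -0.35 for Flt1, 7 of 10 genes were below 0 with a median of -0.12, and 1 was lower at an unadjusted p under 0.05, against 2.56% of all genes. Without the 4 libraries high in olfactory bulb markers, a comparison added after the data were seen, 10 of 10 were below 0 and 3 were lower at an unadjusted p under 0.05, against 2.26% of all genes. The animal numbers fall in 2 ranges, and with a term for the range 5 were lower at that level, against 6.48% of all genes.

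Markers of mural cells, microglia, astrocytes and oligodendrocytes mostly had lower means in KO as well, and those of choroid plexus, meninges and thalamus mostly had higher means. Of 12 mural cell genes, which mark the pericytes and smooth muscle that wrap these vessels, 9 had a lower mean, with a median log2 fold change of -0.19 and a summed level of 243 to 307 CPM in KO against 303 to 352 in KO_WT. Myh11, the smooth-muscle myosin, averaged 8.78 ± 1.52 CPM over the KO libraries against 13.9 ± 0.434 over their wild types (log2 fold change -0.66; SD, n = 3 each), and Abcc9, a pericyte potassium-channel subunit, had a log2 fold change of -0.51. Microglial genes had lower means for 11 of 12 (median -0.10; summed level 543 to 571 CPM in KO and 598 to 657 in KO_WT), among them Csf1r (-0.32) and Cx3cr1 (-0.36). Astrocyte genes had lower means for 9 of 12 (median -0.16; 5573 to 7793 against 7965 to 8592 CPM) and oligodendrocyte genes for 12 of 12 (median -0.39; 5076 to 11017 against 9222 to 11934 CPM). Neuronal genes were split evenly, with 5 of 10 lower and a median of 0.01. Choroid plexus genes had higher means for 9 of 9 (median 0.96), among them Otx2 (1.15) and Clic6 (0.74). Their summed level was 564 to 1077 CPM in KO, against 899 CPM in KO_WT 2 and only 20.9 and 28.8 CPM in KO_WT 1 and KO_WT 3. Thus 2 of the 3 KO_WT libraries held little choroid plexus RNA, while each KO library held it. Meningeal genes had higher means for 9 of 10 (median 0.16), among them Dcn (0.54) and Lum (0.40), and thalamic genes for 6 of 6 (median 0.72; 176 to 292 against 79.9 to 196 CPM). None of these genes was called by edgeR, and the summed level of the 10 endothelial genes was 363 to 468 CPM in KO against 473 to 512 in KO_WT. The part of cell composition in the lower endothelial means was not tested.

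RNA of blood cells, some of which carry Pecam1 or Ly6c1, was present in every library. The 14 genes of blood cells and platelets summed to 68.3 to 102 CPM in KO and 85.8 to 139 CPM in KO_WT, with the least in KO 2. Haemoglobin genes gave most of it, with up to 2644 counts of Hbb-bs in a library, and the leukocyte gene Ptprc, which microglia also express, had up to 250. Cd3e of T cells had at most 8 counts and Ly6g of neutrophils at most 2, with 0 in 9 of 12 libraries. Of the 11 genes tested 9 had a lower mean in KO (median log2 fold change -0.29). The neutrophil gene S100a8 had a log2 fold change of -1.999 (edgeR adjusted p = 0.684) with overlap, at up to 1.62 CPM. The platelet gene Itga2b averaged 1.70 ± 0.229 CPM over the KO libraries against 1.14 ± 0.237 over their wild types (SD, n = 3 each), a log2 fold change of 0.57 (edgeR adjusted p = 0.678). The part of blood cell RNA in the Pecam1 and Ly6c1 values was not tested.

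In the knock-in line the endothelial genes showed no common direction. The median log2 fold change (KI over KI_WT) was 0.04 against -0.01 over all genes, with 6 higher and 4 lower, where 51.3% of all genes were lower. By edgeR 0 of the 10 genes were called, as were 0% of all genes, and 0 of the 10 reached an unadjusted p under 0.05, against 6.96% of all genes. DESeq2 also called 0 genes here, and none of the 10 reached an unadjusted p under 0.05 with it, whereas a fit of KI and KI_WT alone had 2 lower at that level, against 3.43% of all genes. The libraries of KI lay below those of KI_WT for 1 of the 10, Abcb1a, against 5.87% of all genes. By Y-linked RNA, KI 2, KI 3 and KI_WT 1 came from female mice, so sex was not balanced in this line either. Choroid plexus genes summed to 25.4 CPM in KI_WT 3, against 1653 in KI_WT 1, 1215 in KI_WT 2 and 768 to 1931 in KI. Comparisons that use these libraries carry the same imbalance.

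The 2 transporters of drugs and organic anions had the lowest values. Slco1a4 had 66.5, 78.1 and 73.3 CPM in KI and 77.7, 105 and 86.2 CPM in KI_WT. The groups overlapped by KI 2 and KI_WT 1, and KI_WT 2 was the highest of all 12 libraries. Its log2 fold change came to -0.30 (SE 0.148, 95% interval -0.63 to 0.02, edgeR adjusted p = 0.723), and without KI_WT 2 it was -0.17. Abcb1a had 58.1, 57.6 and 63.3 CPM in KI and 65.3, 69.9 and 66.6 CPM in KI_WT, a log2 fold change of -0.17 (95% interval -0.44 to 0.09, edgeR adjusted p = 0.801). The other 8 genes lay between -0.03 (Tek) and 0.10 (Cldn5), and the signs of 7 of them changed when single libraries were left out. Kdr again had the widest interval, -0.50 to 0.58.

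**Figure D3:**
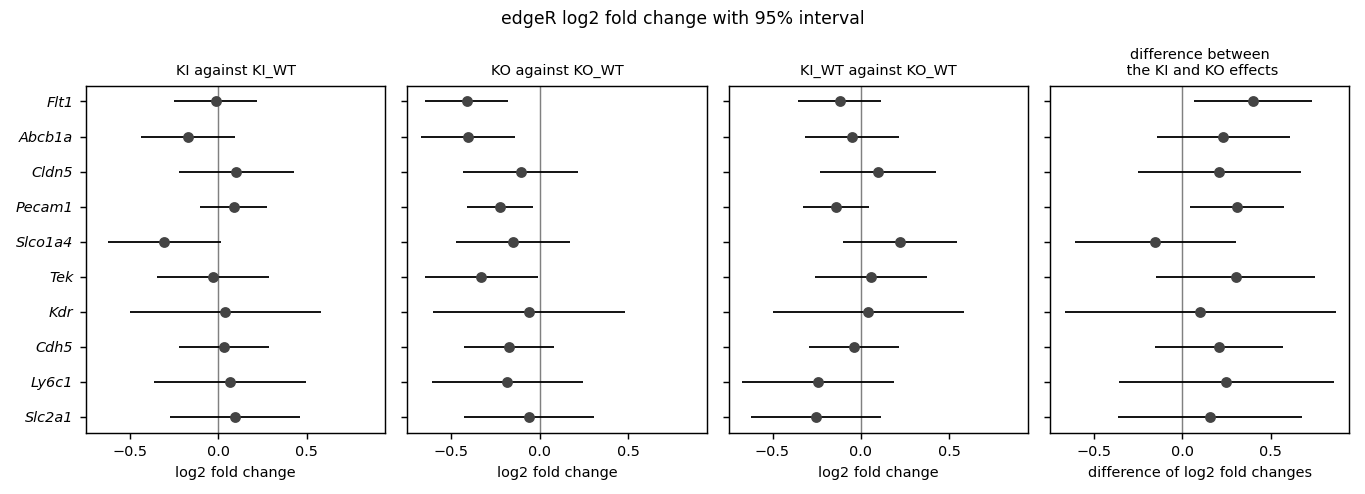
Log2 fold changes from edgeR with 95% intervals (horizontal axes) for the 10 genes in KI against KI_WT, KO against KO_WT, KI_WT against KO_WT and for the difference between the KI and KO effects. The KO intervals of Flt1, Abcb1a, Pecam1 and Tek lie below 0 before adjustment, and the intervals of Kdr are the widest in each panel.

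Between the wild types of the 2 lines no gene of the set separated. The median log2 fold change of KI_WT over KO_WT was -0.04 against 0.00 over all genes, with 6 of the 10 below 0, against 49.9% of all genes. By edgeR 0 of the 10 genes were called, as were 0% of all genes. At an unadjusted p under 0.05 the count was 0, against 1.96% of all genes. By DESeq2 it was also 0, against 0.409% of all genes lower and 0.76% higher. The libraries separated for 0 of the 10, against 7.31% of all genes. The farthest values were -0.25 for Slc2a1 (95% interval -0.62 to 0.12), -0.24 for Ly6c1 (-0.67 to 0.19) and 0.22 for Slco1a4 (-0.10 to 0.54).

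The test of whether the lines differ took the KI effect minus the KO effect, 2 contrasts that share no libraries. The difference was below 0 for 1 of the 10 genes, against 51% of all genes, and above 0 for the other 9, with a median of 0.22 against -0.01 over all genes. By edgeR 0 of the 10 were called, against 0.00573% of all genes, and 2 were higher at an unadjusted p under 0.05, against 2.05%. Those were Flt1, with a difference of 0.40 (SE 0.153, 95% interval 0.06 to 0.73, edgeR adjusted p = 0.918), and Pecam1, with 0.31 (SE 0.122, 95% interval 0.05 to 0.58, edgeR adjusted p = 0.918). Tek (0.30) and Ly6c1 (0.25) followed with intervals that included 0, and Slco1a4 alone was below 0 (-0.15, 95% interval -0.61 to 0.30). The count of 2 became 0 without KI 1, without KO_WT 1 and without the 4 libraries high in olfactory bulb markers, against 1.47%, 1.77% and 2.22% of all genes. It was 1 without KI_WT 1, KI_WT 3, KO 1 or KO_WT 2 and with terms for the regional markers, against 1.42% to 2.66%. Without KO 3 it was 4, where the share of all genes also grew, to 4.65%.

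The genes differed in how much they varied between animals. Across the 12 libraries Kdr had a coefficient of variation of 21.5%, where genes of like level had a median of 9.73%, and Ly6c1 had 17.9% against 8.35%. Flt1, Abcb1a, Cldn5, Slc2a1, Tek and Slco1a4 also varied more than genes of their level, from 13.3% against 8.25% (Flt1) to 16.1% against 8.23% (Slco1a4). Only Pecam1 (8.48% against 8.80%) and Cdh5 (9.99% against 9.85%) varied about as much as other genes of their level. On the log2 scale, the SD of Kdr within groups was 0.36 and that between group means 0.08, so that nearly all its variation lay between mice of one genotype. For Flt1 the 2 values were 0.14 and 0.18.

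**Figure D4:**
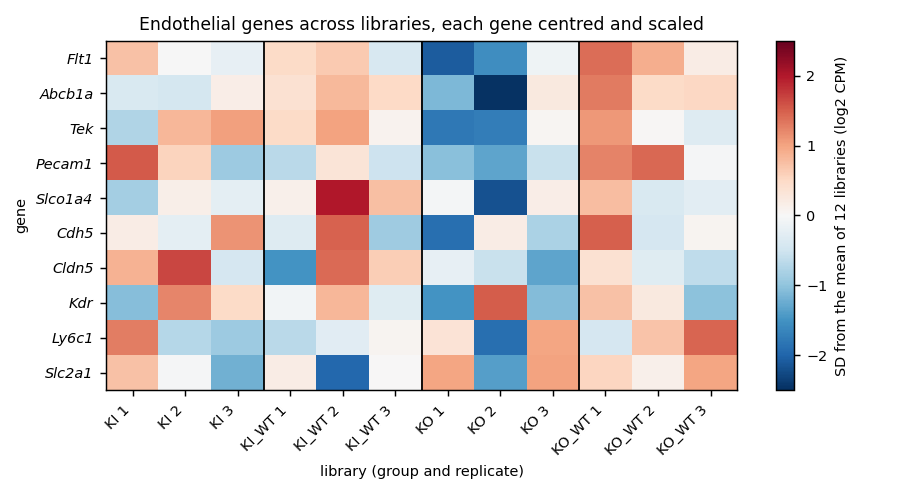
Log2 CPM of the 10 genes (rows) in the 12 libraries (columns, ordered by group), each gene centred on its mean and divided by its SD over the libraries; red is above and blue below the mean, in SD. KO 2 is low for Abcb1a, Slco1a4, Ly6c1 and Slc2a1 and high for Kdr.

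Over the 12 libraries the 10 genes did not vary as a single block. Of 45 pairs, 34 had a positive and 11 a negative Pearson correlation of log2 CPM, with a median r of 0.28. A total of 6 pairs had an adjusted p under 0.05 (permutation tests, Benjamini-Hochberg over the 45 pairs), 4 positive and 2 negative. The permutations exchanged libraries across groups, so differences between groups that both genes share enter these p-values. Flt1 and Pecam1 varied together (r = 0.79, permutation p = 0.00137, adjusted 0.0335; rho = 0.84, permutation p = 0.0011, adjusted 0.0263), also without KO 1 and KO 2, the libraries farthest from the median of Flt1 (r = 0.77), and within groups (r = 0.64). Flt1 and Abcb1a (r = 0.79, permutation p = 0.00353, adjusted 0.0397; rho = 0.62, permutation p = 0.0343, adjusted 0.258) and Abcb1a and Tek (r = 0.79, permutation p = 0.00271, adjusted 0.0397; rho = 0.56, permutation p = 0.0639, adjusted 0.319) rested more on KO 1 and KO 2, and r was 0.47 and 0.39 without them. Abcb1a and Slco1a4 had r = 0.76 (permutation p = 0.0066, adjusted 0.0495; rho = 0.59, permutation p = 0.0493, adjusted 0.296), and 0.59 without the same 2 libraries. Within groups r was 0.55 for Flt1 and Abcb1a, 0.71 for Abcb1a and Tek, and 0.78 for Abcb1a and Slco1a4.

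Kdr went the opposite way to Ly6c1 and Slc2a1. For Kdr and Ly6c1 r was -0.82 (permutation p = 0.00149, adjusted 0.0335) and rho -0.77 (permutation p = 0.00451, adjusted 0.0676). Without KO 1 and KO 2 r was -0.83, and from deviations within groups it was -0.90. For Kdr and Slc2a1 r was -0.75 (permutation p = 0.00488, adjusted 0.0439) and rho -0.83 (permutation p = 0.00117, adjusted 0.0263), with r of -0.65 without KO 1 and KO 2 and -0.80 within groups. The 4 libraries with the least Kdr (KO 1, KO 3, KI 1 and KO_WT 3, at 11.8 to 13.0 CPM) came from 3 of the 4 groups and had 94.3 to 98.6 CPM of Slc2a1, above the other 8 libraries. No relation was detected between Kdr and Flt1, the 2 VEGF receptors (r = 0.15, permutation p = 0.639, adjusted 0.777; rho = 0.15, permutation p = 0.633, adjusted 0.888; r = 0.21 without KO 1 and KO 2).

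**Figure D5:**
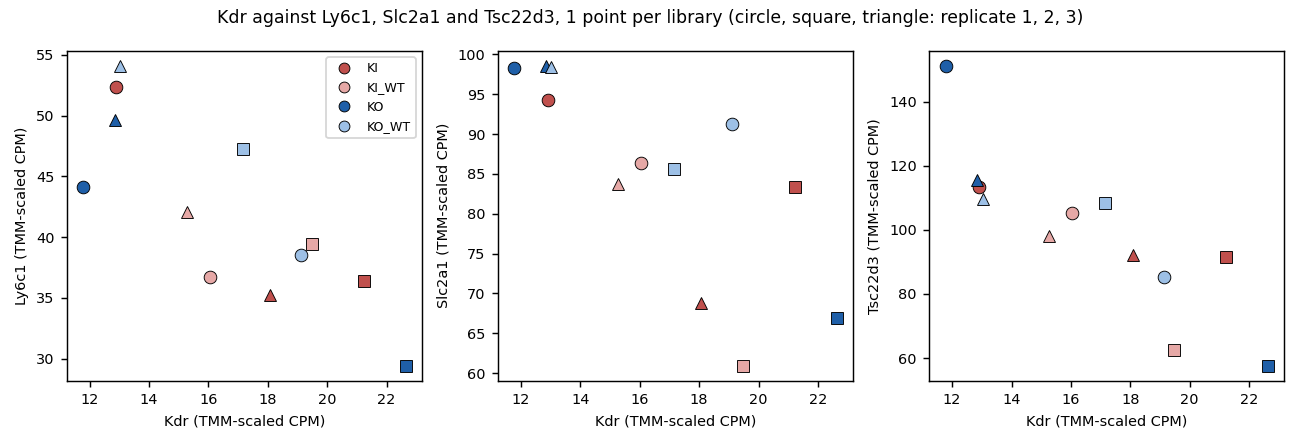
Kdr (horizontal axes) against Ly6c1, Slc2a1 and Tsc22d3 (vertical axes), all in TMM-scaled CPM, with 1 point per library, colours for the groups and circle, square and triangle for replicates 1, 2 and 3; the axes do not start at 0. KO 2 has the most Kdr (22.6 CPM) and the least Ly6c1 and Tsc22d3, and KO 1 has the least Kdr and the most Tsc22d3.

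Ly6c1 ranked 10 and Slc2a1 51 of 17441 genes from the most opposite to Kdr. Genes outside the set that went against Kdr were picked after their values were seen and are given as a description. Among those of at least 5 CPM they include Ubap1 (r = -0.90) and the stress-responsive Ddit4 (r = -0.85). Tsc22d3, which encodes the glucocorticoid-induced leucine zipper, also had r = -0.85, with 151 CPM in KO 1, 57.7 in KO 2 and 62.5 to 116 in the other 10 libraries. Ly6a followed Ly6c1 (r = 0.87) and Hey1, a Notch target found in arterial endothelium and also in other brain cells, went against it (r = -0.86). These genes were measured in the same 12 libraries, and what lies behind their shared variation was not tested.

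The mean of the 10 standardised profiles was lowest in KO 2 (-1.14 SD) and KO 1 (-0.83 SD) and highest in KO_WT 1 (0.85 SD). The genes outside the set most like it over the 12 libraries were Cxcl12 (r = 0.91), a chemokine made by endothelium among other cells, Pdgfrb (r = 0.91), the pericyte receptor, and Pfn4 (r = 0.91). Next came Tpcn1 (0.90), Ccdc149, Wipi1, Wwc2, Gmeb2, Kif1c and Tnfaip1 (0.86). Within groups the correlation of Cxcl12 with the profile was 0.85 and that of Pdgfrb 0.81. Among the lists, the mean level of 25 further endothelial identity genes followed it with r = 0.85 and the 12 mural genes with r = 0.81. The value was 0.66 for oligodendrocyte, 0.61 for astrocyte, 0.60 for Y-linked, 0.56 for microglial and 0.15 for neuronal genes. Barrier transporters had r = 0.71, arterial genes 0.58 and Wnt genes 0.54. Within groups r was 0.78 for identity, 0.67 for mural, 0.58 for barrier transporter, 0.31 for Wnt and 0.27 for arterial genes. For oligodendrocyte genes it was 0.58, for Y-linked 0.59, for astrocyte 0.49 and for microglial genes 0.34. The remaining lists of vessel-related genes, which other brain cells express in part, did not follow the mean profile. Their r was 0.28 for junction genes (-0.12 within groups), 0.13 for veins and activated endothelium and -0.32 for VEGF and angiopoietin genes. These are descriptions over libraries that share groups and depth.

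Further genes of endothelium and its signals were read from 7 lists. These lists also hold genes that other brain cells express, such as Nrp2, Nr2f2 and Hey1, and the cell source was not tested. The lists of identity and transport had lower medians in KO than those of growth-factor and Wnt signalling. That contrast was not itself tested, and it is not one within endothelium alone. Of 25 identity genes 17 had a lower mean (median log2 fold change -0.20), and at an unadjusted p under 0.05, 5 were lower and 1, Sox7, was higher, against 3.79% and 3.43% of all genes. Gpr116, an adhesion receptor of brain endothelium, averaged 42.5 ± 11.98 CPM over the KO libraries against 63.9 ± 6.09 over their wild types (SD, n = 3 each), a log2 fold change of -0.59 without overlap. Clec14a, an endothelial C-type lectin, was at 3.79 ± 0.461 against 5.32 ± 0.493 CPM (log2 fold change -0.49). Of 13 barrier transporters 11 had a lower mean (median -0.15), 3 of them at an unadjusted p under 0.05 (3.79% of all genes), including the glutamine carrier Slc38a5 (-0.66) and the efflux pump Abcc4 (-0.32). With all 12 libraries edgeR called none of the tested genes of these 7 lists in any comparison. Without KO 3, Gpr116 was 1 of 6 genes called in KO, with a log2 fold change of -0.84 (edgeR adjusted p = 0.0113), and it was the only gene of these lists called under any setting run.

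VEGF and angiopoietin genes other than the receptors of the set had a median of 0.05 in KO, with 7 of 13 higher. Angpt1, the activating ligand of Tek, averaged 12.1 ± 1.89 CPM over the KO libraries against 8.95 ± 1.14 over their wild types (log2 fold change 0.43), and Ptprb, the phosphatase that acts on Tek, at 47.2 ± 17.7 against 68.3 ± 11.2 CPM (-0.53; SD, n = 3 each). Both groups overlapped for each gene. Of 14 junction genes 8 had a lower mean (median -0.07), with the scaffold Tjp1 at -0.32 and no overlap. The 13 genes of Wnt signalling at the barrier had a median of -0.02, with 9 lower and 4 higher. Of these, the co-receptor Lrp6 (-0.28) and Reck (-0.26) were lower without overlap, as were 6.4% of all genes. Arterial genes had a median of -0.12 (6 of 8 lower; Sema3g -0.41), and the 9 measured genes of veins and activated endothelium one of 0.00. Among the latter Lcn2, a secreted lipocalin induced in inflammation, lay far from that median. It ranged over 0.150 to 0.359 CPM in KO and 0.315 to 15.7 CPM in KO_WT, so the groups overlapped, and its log2 fold change was -4.88 (95% interval -8.81 to -0.94, edgeR adjusted p = 0.678).

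In KI the same lists gave medians of -0.08 (Wnt signalling) to 0.13 (veins and activation). Nrp2, a VEGF co-receptor also made by neurons, averaged 53.6 ± 6.86 CPM over the KI libraries against 40.7 ± 2.86 over their wild types (log2 fold change 0.40), and Pgf, a ligand of Flt1, at 2.504 ± 0.364 against 1.71 ± 0.287 CPM (0.55). Nr2f2, a vein-specifying factor found in neurons as well, had a log2 fold change of 0.61 and Ackr1, a chemokine receptor of venules, one of 0.29 (47.9 ± 2.41 against 39.1 ± 0.683 CPM; SD, n = 3 each). These 4 genes were named for the smallest p of their lists, and edgeR called none of them (adjusted p = 0.705 each). Of 6 thalamic markers 5 had a higher mean in KI (median 1.32; summed level 202 to 301 CPM in KI against 105 to 227 in KI_WT), and their part in Nrp2, Nr2f2 and Lef1 (0.62) was not tested.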

How the data were processed

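Counts for 41388 genes in 12 libraries were deposited by the authors as whole numbers, together with a deposited table of RPKM. Per the submitters' processing notes, bcl2fastq 2.17, STAR 2.5.0c and Cufflinks 2.2.1 were used with GRCm38. The read counter, annotation and strand setting are not given in the sources used here. Gene symbols came from the files, coordinates from GENCODE M21 (40340 of 41388 identifiers matched) and promoters from RefSeq.

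Groups followed the mutation label. Counts were tested with edgeR 4.0.16 in R 4.3.3 (filterByExpr, TMM, 4 group means over all 12 libraries, quasi-likelihood F test, 8 residual degrees of freedom, a common biological CV of 15.7%), with Benjamini-Hochberg adjustment over 17441 genes and a threshold of 0.05. The fit was also run on counts simulated with its own estimated spread. Those counts held no differences of region, sex or animal-number range, so the run cannot show how such differences act here. DESeq2 1.42.0 and limma 3.58.1 on log2(RPKM + 0.1 or 1) were alternatives, as were other filters, scalings, terms and left-out libraries. Each library has its own animal number, and libraries of a group differed by more than sampling noise.

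The 10 genes and all lists were chosen with earlier results of these data known. Named genes were the 10, from each list up to 2 with the smallest p in KO against KO_WT and up to 2 in KI against KI_WT, and the 10 genes outside the set with the highest correlation with its mean profile among those of at least 5 CPM. Sox7, Tpp1 and the genes set beside Kdr and Ly6c1 were named after their values were seen.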

Additional observations from a re-analysis of the deposited data

How the results depend on the processing

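None of the 10 genes was called under any setting run, and the median log2 fold change of the set kept its sign in KO against KO_WT and in the difference of effects under each setting run. It ran from -0.03 to 0.08 in KI and from -0.14 to 0.03 between wild types. Genes called over all genes were 5 in KO, 1 between wild types and 5 in the difference with DESeq2, 3 in KO and 3 in the difference with limma on log2(RPKM + 0.1) without a filter, and 1 in KI and 1 between wild types with only the groups compared, which gives no separate value for the difference. With regional terms they were 0 in KO and 0 in the difference, with the Y-linked term 0 in the difference, and without the 4 libraries high in olfactory bulb markers (added after the data were seen) 3 in KO and 0 in the difference. With single libraries left out they were 1 to 6 in KO (6 without KO 3) and 0 to 1 in the difference, and the order of levels kept 8 to 10 of 10 ranks.

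After a change of sign, the values below lay within 1 standard error of 0. As reported, Cdh5 (-0.17, SE 0.117) and Slco1a4 (-0.15, SE 0.148) in KO had lain more than 1 standard error below 0. In KI, Flt1 was 0.0358 and Tek 0.0144 with limma on log2(RPKM + 0.1), with or without the filter, and 0.0316 and 0.0138 on log2(RPKM + 1). With the Y-linked term Flt1 was 0.029 and Kdr -0.10 in KI, Ly6c1 0.0481 in KO, and Abcb1a 0.000599 and Kdr -0.0456 between wild types. With regional terms Tek was 0.10, Ly6c1 -0.21 and Slc2a1 -0.00536 in KI, Slco1a4 0.0844, Kdr 0.0173 and Cdh5 0.0506 in KO, and Abcb1a 0.077, Kdr -0.00266 and Cdh5 0.0291 between wild types. With the animal-number term Tek was -0.11 and Kdr -0.26 between wild types. Without the 4 libraries Kdr was -0.20 in KI, -0.021 between wild types and -0.17 in the difference, and Cdh5 0.0155 between wild types. The cause was not tested.

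With single libraries left out, KI ranges were -0.0307 to 0.14 (Cdh5), -0.0562 to 0.24 (Cldn5), -0.073 to 0.0332 (Flt1), -0.13 to 0.23 (Kdr), -0.13 to 0.18 (Ly6c1), -0.0497 to 0.22 (Slc2a1) and -0.0942 to 0.11 (Tek). KO ranges were -0.41 to 0.11 (Kdr), -0.34 to 0.0112 (Ly6c1), -0.15 to 0.10 (Slc2a1) and -0.25 to 0.0043 (Slco1a4). Between wild types they were -0.0776 to 0.0187 (Abcb1a), -0.15 to 0.0508 (Cdh5), -0.0392 to 0.27 (Cldn5), -0.0901 to 0.17 (Kdr) and -0.00255 to 0.17 (Tek), and in the difference -0.0661 to 0.46 (Kdr) and -0.00204 to 0.28 (Slc2a1). No paired analysis was possible because each animal number occurs once and the replicate numbers only follow the order of the records. With 3 animals a group the median standard error of the 10 genes in KO was 0.147 on the log2 scale, which limits the size of difference that could be called.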
